A study of Rattus norvegicus with 10 samples.

Results

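The iron genes of the rat liver were taken from a list of 9 names that covers hepcidin (Hamp), the transferrin receptors (Tfrc, Tfr2), ferroportin (Slc40a1), the hemochromatosis protein (Hfe), bone morphogenetic protein 6 (Bmp6), transferrin (Tf) and the ferritin chains (Fth1, Ftl1). A member had to have a probe set, the group of short probes that reports 1 transcript, annotated with exactly 1 gene symbol. This held for 6 of the 9 genes with 12 probe sets, out of 14217 genes and 31042 probe sets in all. Tf, Fth1 and Ftl1 were left out, because the 2 probe sets that name Tf and the single ones that name Fth1 and Ftl1 list several symbols each. Their levels are not reported here, so the iron stores' own transcripts, the ferritins, stand outside what follows. Of the 12 probe sets, 10 passed the filter on low values and were tested, and the 2 that did not were both Bmp6.

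The series holds liver RNA of 10 Wistar/ST rats, 1 array per rat, and all of them ate a high-fat diet. The 5 mulberry rats were dosed through a stomach tube with dried mulberry leaf powder in 0.5% carboxymethylcellulose. Their daily dose was 500 mg per kg of body weight, and for the 5 control rats the dose of leaf powder was 0 mg per kg. The labels list 0.5% carboxymethylcellulose for the control rats too. Livers were taken after 7 weeks. There was no group on another diet, so the comparison asks what the leaf powder changed on top of fat feeding, and age and sex are not given in the labels used here. In whole-liver RNA, fewer cells of a type and less RNA per cell cannot be told apart.

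The liver both stores iron and sets the iron level of the whole body. Hepatocytes secrete hepcidin, which binds ferroportin, the iron exporter of macrophages, enterocytes and hepatocytes, and has it degraded, so that less iron enters the blood. Hamp transcription rises with body iron through BMP6 from sinusoidal endothelium, its co-receptor hemojuvelin and the SMAD proteins, with HFE and transferrin receptor 2 as sensors of transferrin-bound iron, and it rises with inflammation through interleukin-6 and STAT3. Inside the cell, iron regulatory proteins bind stem-loops in messenger RNAs. They stabilise the Tfrc message when iron is scarce and block translation of the ferritin and ferroportin messages, so ferritin and ferroportin protein can move with little change of their transcripts.

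Both routes to hepcidin meet in the promoter of Hamp, and that stretch is shown for this reason beside the promoter of Tfrc, the gene that marks iron need. The sequences are from RefSeq, build GRCr8, and each gives the 250 bases before the annotated start on the gene's strand, chr1:95300272-95300521 on the minus strand for Hamp and chr11:81690319-81690568 on the minus strand for Tfrc. Capitals mark every match to GGCGCC, the letters of the BMP-responsive element, or to TTCNNNGAA, the letters of a STAT site. Both motifs read the same on either strand.

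Hamp: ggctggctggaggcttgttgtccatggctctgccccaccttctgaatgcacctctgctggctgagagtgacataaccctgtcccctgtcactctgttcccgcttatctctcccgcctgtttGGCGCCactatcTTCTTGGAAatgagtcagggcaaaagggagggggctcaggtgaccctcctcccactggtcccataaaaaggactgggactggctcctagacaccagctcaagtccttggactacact

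Tfrc: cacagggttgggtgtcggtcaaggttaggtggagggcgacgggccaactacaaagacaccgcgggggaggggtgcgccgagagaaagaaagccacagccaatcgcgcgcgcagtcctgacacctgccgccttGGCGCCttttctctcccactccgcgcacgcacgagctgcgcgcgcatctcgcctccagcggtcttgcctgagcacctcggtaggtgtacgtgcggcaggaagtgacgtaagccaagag

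In the Hamp promoter GGCGCC lay at positions -129 to -124, counted back from the start, and the STAT letters TTCTTGGAA at -117 to -109, with 6 bases between the 2 matches. Over 33469 promoter windows of 250 bases, 8.69% held GGCGCC, 7.67% held TTCNNNGAA and 0.379% held both. Tfrc held GGCGCC once, at -118 to -113, and no match to the STAT letters. The windows of Tfr2, Slc40a1 and Bmp6 held neither, and Hfe was not matched in the promoter table. A match describes letters, not binding.

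Correlations between arrays lay between 0.957 and 0.975, and the median intensity per array lay between 97.5 and 118. All 6 hepatocyte markers listed were measured, with a summed intensity of 173607 to 215077 in control and 174356 to 220653 in mulberry rats, as the liver label implies. Over all 18625 probe sets tested with limma, 0 (0%) passed an adjusted p of 0.05, and 325 (1.74%) had an unadjusted p under 0.05. Groups did not overlap for 33 of 10328 genes (0.320%).

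None of the 6 iron genes differed between mulberry and control rats beyond the spread between animals. With limma, 0 of the 10 tested probe sets passed, each with an adjusted p of 0.9999, against the background of 0%, and at an unadjusted p under 0.05 the count was also 0 of 10. In all 12 probe sets the groups overlapped. What the data do give is how closely each gene was bounded and how much it varied from rat to rat, and on both counts the members were unlike each other.

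Hepcidin had nearly equal means in both groups. The Hamp intensity (probe set 1387396_at) was 22922, 17590, 20428, 18820 and 15309 in control rats 1 to 5 and 22722, 17852, 15411, 15448 and 24633 in mulberry rats 1 to 5. The highest rat, mulberry 5, and the lowest, control 5, stood 1.61-fold apart, and both groups held high and low animals. The mean was 19014 ± 2875 over the control rats and 19213 ± 4248 over the mulberry rats (SD, n = 5 each). The log2 difference, mulberry minus control, was 0.00070 ± 0.15 (SE; exact permutation p = 0.992), with a 95% interval from -0.32 to 0.32. On a linear scale the interval runs from 0.80 to 1.25-fold. It gives the changes that 5 rats per group leave possible and is not a limit of detection. The sign of so small a value has no meaning, and it turned with quantile normalization and with a median shift.

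**Figure D1:**
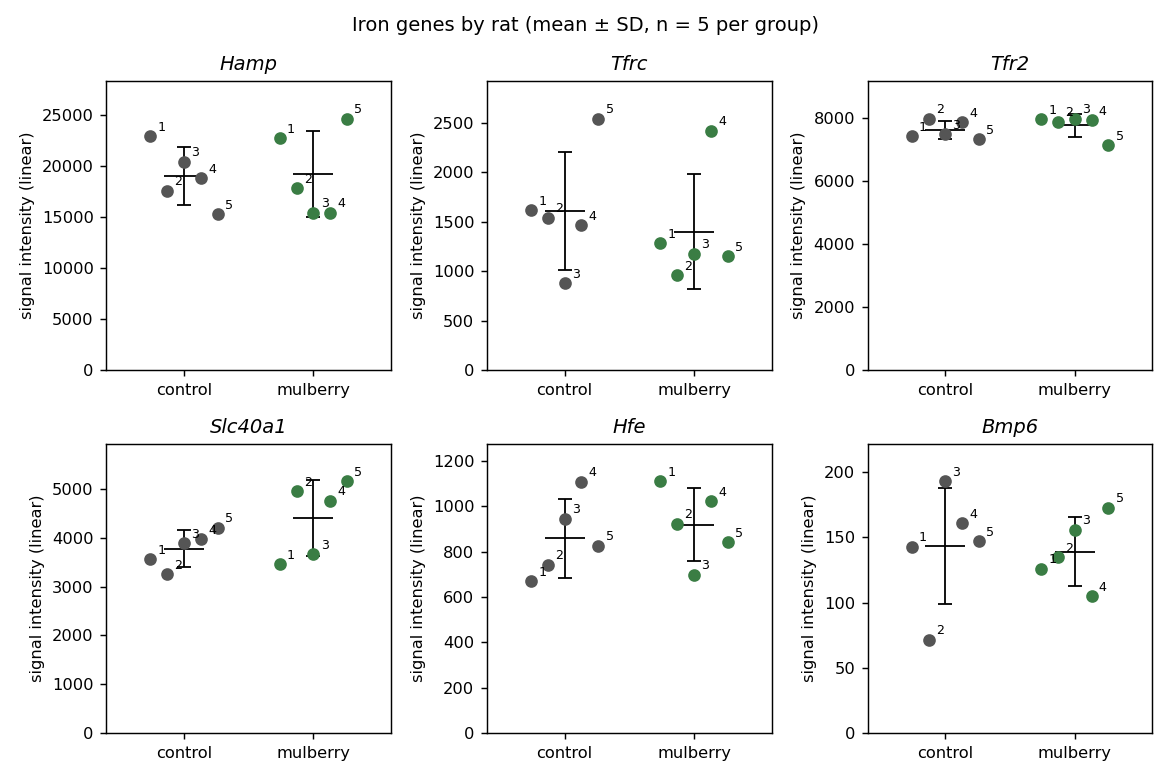
Signal intensity (linear scale from 0) of the 6 iron genes in each rat, with control rats in grey and mulberry rats in green, small numbers giving the rat and black bars the mean ± SD of 5 rats. The groups overlap in every panel, Tfr2 lies in a narrow band between 7141 and 7990, and Tfrc has 1 high rat in each group, control 5 and mulberry 4.

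The sensors upstream of hepcidin did not pass the test either, and Tfr2 was bounded most closely. Tfr2, the liver form of the transferrin receptor and a partner of HFE, had an intensity of 7433, 7990, 7497, 7872 and 7343 in control and 7974, 7891, 7986, 7945 and 7141 in mulberry rats 1 to 5. The highest value exceeded the lowest by 1.12-fold over the 10 rats, and mulberry 5 stood below the other mulberry rats. The log2 difference of Tfr2 was 0.029 ± 0.070 (SE; exact permutation p = 0.452), with a 95% interval of 0.92 to 1.13-fold, the narrowest among the 10 probe sets. Hfe, which encodes an MHC class I-like protein that binds transferrin receptors, was at 668, 742, 945, 1107 and 826 in control and 1109, 922, 698, 1023 and 842 in mulberry rats. Mulberry 1 and control 4 were the highest and control 1 the lowest, so the ranges nearly coincided. For Hfe the log2 difference was 0.10 ± 0.16 (SE; exact permutation p = 0.556), with an interval of 0.85 to 1.36-fold.

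Bmp6, the endothelial ligand that drives hepcidin, was dim. Of its 4 probe sets, 1378427_at and 1378827_at lay under the filter level of 61.1 on average, with intensities from 5.73 to 61.2 and from 14.7 to 83.3, and were not tested. The brightest, 1388920_at, was at 143, 71.6, 193, 161 and 147 in control and 126, 135, 156, 105 and 173 in mulberry rats. Control 2 was the lowest rat and control 3 the highest, so the control group spanned the whole range. Its log2 difference was 0.0035 ± 0.22 (SE; exact permutation p = 0.992), with an interval of 0.72 to 1.40-fold, and the sign turned with a pseudocount of 64, quantile normalization and a median shift. The other tested probe set, 1388201_at, averaged 65.5 ± 13.4 in the control group and 77.5 ± 14.9 with mulberry (SD, n = 5 each), a log2 difference of 0.20 ± 0.19 (SE; exact permutation p = 0.230). Markers of sinusoidal endothelium, the main source of BMP6, had a summed intensity of 11752 to 14501 in control and 11899 to 14992 in mulberry rats over 8 of 10 listed genes, and their part in the Bmp6 values was not tested.

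Ferroportin had the smallest exact permutation p of the 6 genes, still above 0.05. Slc40a1 (1390412_at) was at 3565, 3256, 3897, 3977 and 4207 in control and 3465, 4957, 3670, 4763 and 5158 in mulberry rats 1 to 5. Mulberry 2, 4 and 5 lay above every control rat, and mulberry 1 and 3 lay inside the control range. The mean was 3780 ± 373 without and 4403 ± 778 with mulberry (SD, n = 5 each), a log2 difference of 0.21 ± 0.13 (SE; exact permutation p = 0.151), with an interval of 0.95 to 1.39-fold. The other 2 probe sets of the gene also had higher mulberry means. For 1387130_at the log2 difference was 0.11 ± 0.16, and for 1376972_at it was 0.19 ± 0.22 (SE). The order of the rats differed between probe sets. On 1387130_at control 3 (3329) lay above mulberry 2 (2728) and mulberry 5 (3168), and on 1376972_at mulberry 4 (431) lay inside the control range. Probe sets of the gene share the same livers and are not separate evidence. Ferroportin is abundant in Kupffer cells, the macrophages of the liver. Their markers had summed intensities of 12464 to 25938 in control and 10775 to 22146 in mulberry rats over 9 of 12 listed genes. On the log2 scale 8 of the 9 had a higher mean in mulberry rats (median 0.12), beside 51.3% of all genes (median 0.0035). Of the 9, 1 had an unadjusted limma p under 0.05, beside 1.79% of all genes. This was Cd68, a lysosomal protein of macrophages, at 661, 653, 785, 608 and 684 in control and 828, 1094, 553, 1159 and 963 in mulberry rats 1 to 5 (log2 difference 0.39 ± 0.18, SE; exact permutation p = 0.0873, limma adjusted p = 0.9999). Mulberry 2, 4 and 5, the rats above every control for Slc40a1 (1390412_at), were also above every control for Cd68. So was mulberry 1 (828), which lay inside the control range for Slc40a1. Among mulberry rats, mulberry 2, 4 and 5 were the 3 highest for the markers Clec4f and C1qa. Over both groups, control 3 was the highest rat for Clec4f (5790) and C1qa (5359), and also for C1qb, C1qc, Csf1r, Adgre1 and Cd5l. For Cd68 and Cd163 the highest rat was mulberry 4. On 1390412_at control 3 (3897) lay below control 4 and control 5. The part of Kupffer cells in the Slc40a1 values was not tested.

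**Figure D2:**
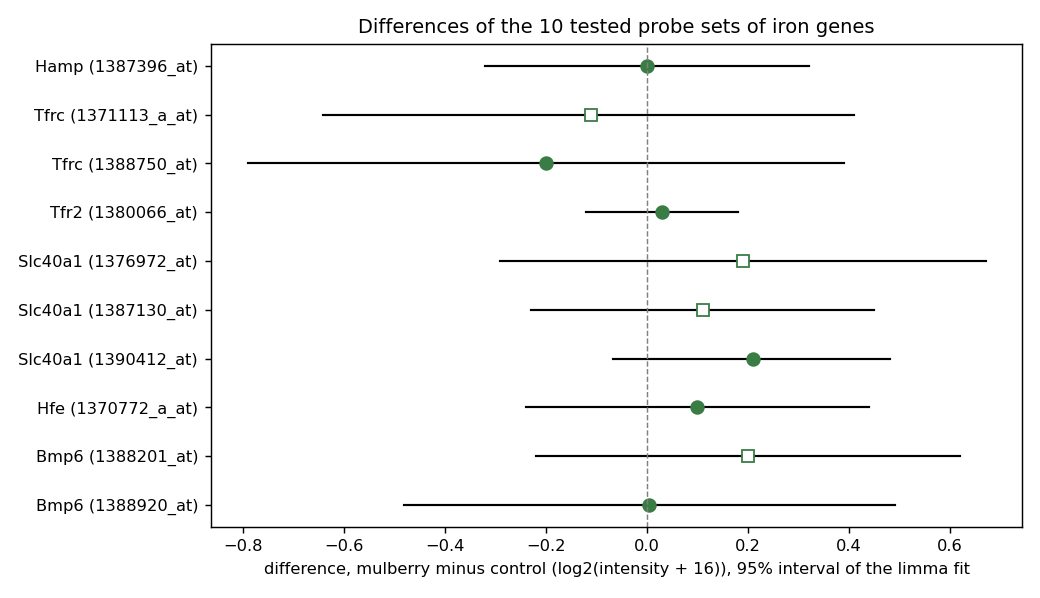
Log2 difference, mulberry minus control, of the 10 tested probe sets (log2(intensity + 16) scale), with the 95% interval of the limma fit as a line. Filled circles are the probe set with the highest mean of each gene and open squares the others. All 10 intervals cross 0, from -0.12 to 0.18 for Tfr2 to -0.79 to 0.39 for Tfrc (1388750_at).

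The transferrin receptor Tfrc, which takes up transferrin-bound iron and is made most when a cell is short of iron, was the most variable member. Its brighter probe set (1388750_at) read 1617, 1540, 880, 1462 and 2540 in control and 1285, 959, 1175, 2421 and 1154 in mulberry rats 1 to 5. Control 5 and mulberry 4 stood well above the other 8 rats, and the highest value was 2.88-fold the lowest. Averages of 1608 ± 597 without and 1399 ± 584 with mulberry (SD, n = 5 each) gave a log2 difference of -0.20 ± 0.27 (SE; exact permutation p = 0.556), with a wide interval of 0.58 to 1.31-fold. The second probe set (1371113_a_at) gave -0.11 ± 0.24 (SE).

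The rat-to-rat pattern of Tfrc was shared by its probe sets. Over the 10 rats the log2 values of the 2 Tfrc probe sets correlated with a Pearson r of 0.92 (permutation p = 0.000120, or 0.000600 adjusted over 5 pairs of probe sets of the same gene) and a Spearman rho of 0.92 (permutation p = 0.000470, adjusted 0.00235). Without the 2 rats farthest from the median r was 0.89. For Slc40a1 the brighter pair, 1387130_at and 1390412_at, had r = 0.71 (permutation p = 0.0231, adjusted 0.0579) and rho = 0.75 (permutation p = 0.0163, adjusted 0.0408), or r = 0.88 without the 2 farthest rats. The dimmest Slc40a1 probe set, 1376972_at, followed these less closely, with r = 0.13 (permutation p = 0.714) and r = 0.55 (permutation p = 0.0994). The 2 tested Bmp6 probe sets had r = 0.36 (permutation p = 0.321, adjusted 0.401) and rho = 0.49 (permutation p = 0.156, adjusted 0.240), or r = 0.56 without the 2 farthest rats, and this relation did not pass. Probe sets of a gene are read on the same array from the same RNA.

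**Figure D3:**
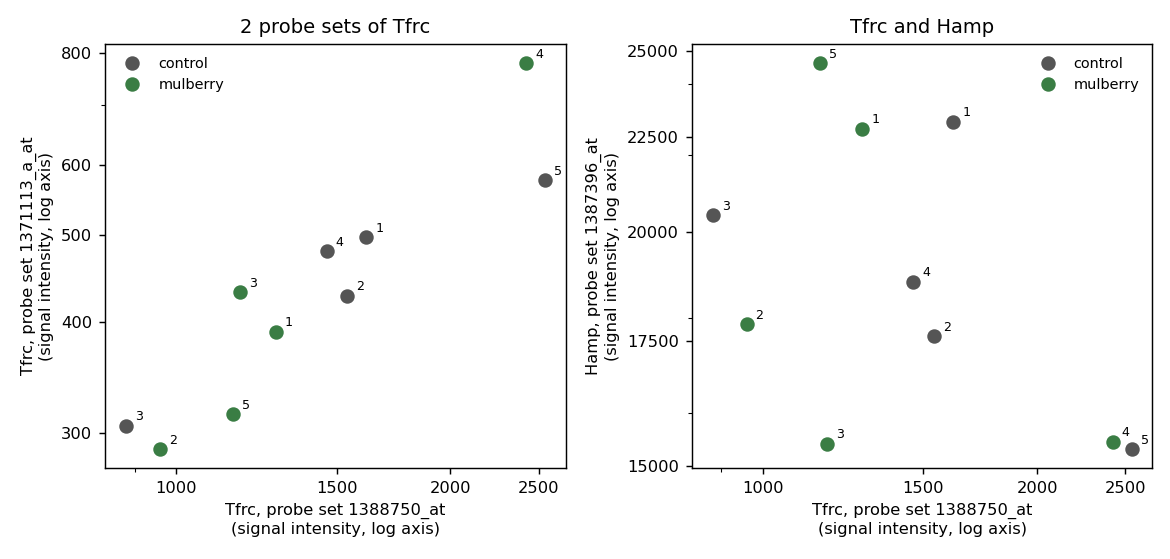
Signal intensity by rat on logarithmic axes, control rats in grey and mulberry rats in green, with rat numbers beside the points. The left panel sets the 2 Tfrc probe sets against each other (Pearson r = 0.92 over 10 rats), and the right panel sets Tfrc against Hamp (r = -0.46), where the 2 rats with the most Tfrc, control 5 and mulberry 4, are among the 3 with the least Hamp.

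Set beside genes of like brightness, the members fell at both ends of the range of variation. The measure was the SD between rats within a group on the log2 scale, ranked among genes whose mean log2 value lay within 0.5 of the member's. For Hamp the SD was 0.27, above that of 97.4% of 193 such genes, and for Tfrc it was 0.52, above 96.6% of 1419 genes. Tfr2, at 0.062, lay above only 1.54% of 390 genes. Ranked among genes of any brightness, Hamp lay above 60.9%, Tfrc above 93.4% and Tfr2 above 0.358%, so the high rank of Hamp held only beside genes as bright. Hfe (0.27, 71.2% of 1769 genes), Bmp6 (0.38, 70.5% of 1701 genes) and Slc40a1 (0.21, 59.1% of 705 genes) lay nearer the middle. This describes these 10 rats and carries no test.

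Relations between members and partners over the rats did not pass. Of 8 pairs, 0 had an adjusted permutation p under 0.05, and 0 had an unadjusted p under 0.05. Hamp correlated with Id1, a direct BMP and SMAD target, at r = 0.48 (permutation p = 0.165, adjusted 0.497; rho = 0.47, permutation p = 0.179, adjusted 0.526), and r fell to -0.08 without the 2 rats farthest from the median of Hamp. With Smad7, an inhibitory SMAD that BMP signalling also induces, r was 0.38 (permutation p = 0.272, adjusted 0.544; rho = 0.39, permutation p = 0.263, adjusted 0.526), and 0.00 without those rats. With Bmp6 itself it was 0.32 (permutation p = 0.389, adjusted 0.622; rho = 0.30, permutation p = 0.409, adjusted 0.655), or 0.17 without them. All 3 values of r moved toward 0 or past it when those rats were left out. Here and in the pairs below, that step narrows the range of the gene, so a smaller r does not decide the relation. Without mulberry 5 alone, r was 0.19 for Id1, 0.17 for Smad7 and 0.19 for Bmp6.

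Negative correlations did not pass either. Tfrc and Hamp had r = -0.46 (permutation p = 0.179, adjusted 0.497; rho = -0.42, permutation p = 0.234, adjusted 0.526), which became 0.10 without the 2 rats farthest from the median of Tfrc. Hamp and Tfr2 had r = -0.45 (permutation p = 0.186, adjusted 0.497; rho = -0.39, permutation p = 0.262, adjusted 0.526), or 0.10 without the 2 farthest rats, -0.18 without mulberry 5 and -0.74 without control 5. The other pairs lay near 0. They were Hamp with Hfe (r = 0.07, permutation p = 0.832; rho = 0.16, permutation p = 0.656), Hamp with Slc40a1 (r = -0.03, permutation p = 0.924; rho = -0.01, permutation p = 1) and Tfrc with Slc40a1 (r = -0.01, permutation p = 0.988; rho = -0.18, permutation p = 0.634). Without the 2 farthest rats they stood at 0.58, -0.38 and -0.55. Subtracting the group means left each r within 0.11 of its value over all rats.

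Genes whose log2 values followed the members most closely over the 10 rats were picked by Pearson r among 10327 genes, so their r is a description. For Hamp they were Afg2b (0.92), the actin regulator Vasp (0.88), Nfil3 (0.88), a transcription repressor of the clock and of immune cells, Ada (0.85), the adenosine deaminase, and Tmem179 (0.85). Nfil3 ranged from 300 to 1037 in intensity over the rats, while Tmem179, at 59.3 to 112, lay near the filter level. For Tfrc they were the phospholipase Ddhd2 (0.92), the choline transporter Slc44a1 (0.91), the nucleolar GTPases Gnl3 (0.90) and Gtpbp4 (0.90), and Poglut2 (0.88). None of the 10 genes passed the limma test between mulberry and control rats.

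No gene of the wider iron pathway passed the test. Of 81 genes listed in 5 groups, 71 had a probe set with 1 symbol and 67 were tested; with limma 0 rose and 0 fell, and 0 had an unadjusted p under 0.05, against 1.79% of all genes. Higher means in mulberry rats were found for 31 and lower means for 36, with a median log2 difference of -0.022, beside 51.3% higher and a median of 0.0035 over all 10328 genes. Only 3 of the 67 differed by more than 0.25 on the log2 scale, and 0 by more than 0.5. Groups did not overlap for 2 of them, Nfs1 and Smad4, against 0.320% of all genes.

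**Figure D4:**
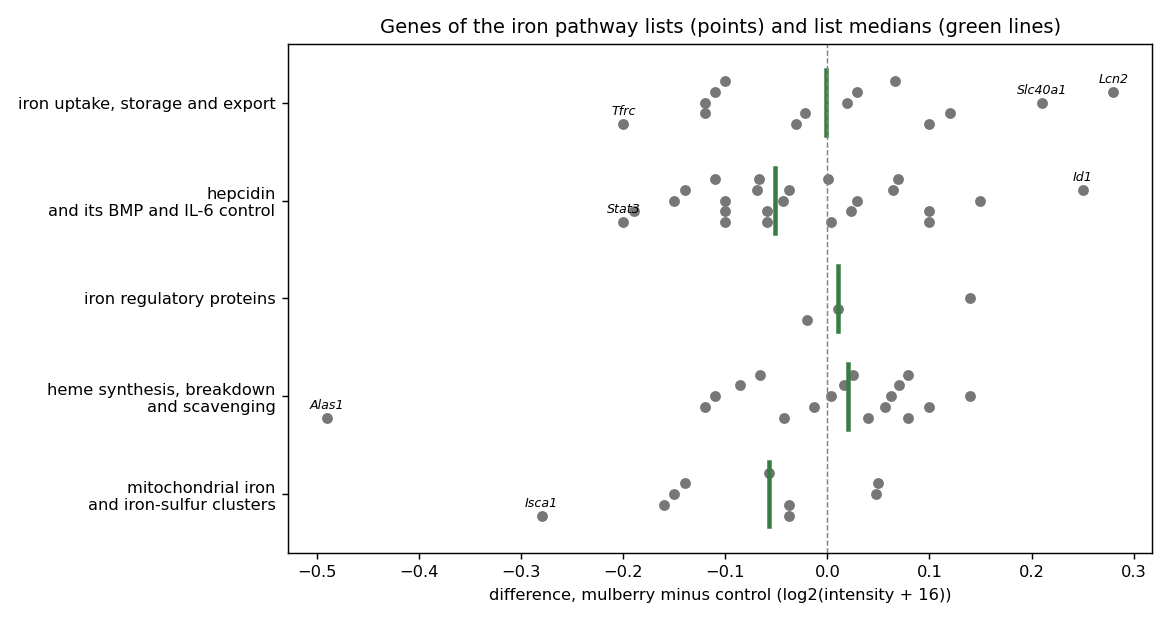
Log2 difference, mulberry minus control (log2(intensity + 16) scale), of each tested gene of the 5 iron pathway groups (grey points; vertical offsets only separate them) with the median of each group as a green line. All medians lie between -0.057 and 0.021, and Alas1 at -0.49 is the point farthest from 0.

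Among genes of iron uptake, storage and export, 7 of 14 had a higher mean (median -0.0018). Besides ferroportin, the smallest unadjusted p values were those of ceruloplasmin (Cp), the plasma ferroxidase that loads iron onto transferrin, with a log2 difference of 0.12 ± 0.091 (SE) and the opposite sign on 1 of its other 2 probe sets, and Pcbp2, an iron chaperone, at -0.11 ± 0.088 (SE), with the opposite sign on both others. In the group of hepcidin and its BMP and IL-6 control, 10 of 24 had a higher mean (median -0.051). Smad4, the shared partner of the receptor-activated SMADs, read 1366, 1234, 1325, 1313 and 1288 in control and 1230, 1196, 1154, 1092 and 1234 in mulberry rats. Its groups barely separated, with control 2 and mulberry 5 equal to the whole number. The log2 difference was -0.14 ± 0.086 (SE; limma adjusted p = 0.9999), with an exact permutation p, not adjusted for the number of genes, of 0.00794. Acvr1, a BMP type I receptor, was at -0.19 ± 0.17 and Smad7 at -0.059 ± 0.19 (SE), each with the opposite sign on 1 of its other 2 probe sets, and Id1 was at 0.25 ± 0.22 (SE). Acute-phase genes, which share the interleukin-6 route with hepcidin, had a median of 0.053 over 9 tested, all 9 with higher means and 0 past the test. All 6 hepatocyte markers had higher means as well (median 0.050), beside 51.3% of all genes (median 0.0035). Fgb is in both of these lists, and the acute-phase genes Cp and Hp are also in the iron groups. These counts are therefore not separate evidence.

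The iron regulatory protein group held Aco1 and Ireb2, which encode these proteins, and Fbxl5, and none of the 3 genes passed the test. Aco1, which doubles as the cytosolic aconitase when iron is plentiful, averaged 3762 ± 173 without and 3734 ± 509 with mulberry (SD, n = 5 each), a log2 difference of -0.020 ± 0.10 (SE). Ireb2, the second such protein, was at 618 ± 137 and 704 ± 256 (0.14 ± 0.22, SE). Fbxl5, the iron-sensing ubiquitin ligase subunit that removes Ireb2 protein, was at 1410 ± 148 and 1421 ± 155 (0.010 ± 0.11, SE).

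Heme and iron-sulfur genes held the largest single difference. Alas1, the rate-limiting enzyme of heme synthesis in liver, read 20456, 10551, 10336, 14691 and 19930 in control and 9107, 12135, 6604, 12146 and 13604 in mulberry rats 1 to 5. Control 1, 4 and 5 lay above every mulberry rat, and control 2 and 3 lay among them. The log2 difference was -0.49 ± 0.23 (SE; exact permutation p = 0.143, limma adjusted p = 0.9999), with a 95% interval from -0.99 to 0.016. Fech, which inserts iron into heme, was at -0.12 ± 0.11 and the hemoglobin scavenger gene Hp at 0.079 ± 0.10 (SE), and 11 of the 18 heme genes had a higher mean (median 0.021). Of the 9 genes of mitochondrial iron and iron-sulfur clusters, 7 had a lower mean (median -0.057). Nfs1, the cysteine desulfurase that supplies the sulfur, read 3288, 3059, 2960, 2959 and 2929 in control and 2772, 2642, 2922, 2609 and 2605 in mulberry rats. Every mulberry rat lay below every control rat, though mulberry 3 and control 5 were close, and the log2 difference of -0.16 ± 0.080 (SE) missed the test (limma adjusted p = 0.9999), while the exact permutation p, not adjusted for the number of genes, was 0.00794, the smallest that 5 against 5 rats can give. Isca1, an iron-sulfur assembly protein, was at -0.28 ± 0.18 and the glutaredoxin gene Glrx5 at -0.14 ± 0.11 (SE). The Isca1 value leans on control 5, at 1866, while the other control rats read 864 to 980 and the mulberry rats 831 to 940. Red blood cell markers, of which 3 of 9 were tested, summed to 17237 to 30016 in control and 23221 to 27439 in mulberry rats.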

How the data were processed

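Intensity values were deposited by the authors on a linear scale, 1 per probe set and array; the submitters' processing notes name MAS5 and affy, without a role. The mean after trimming 2% of the values was 500 on each array and the lowest intensity was 1, so values were used as already scaled. Control probe sets (57 of 31099) and those at or under the 40th percentile of mean log2(intensity + 16), an intensity of 61.1, were left out; 18625 remained. Groups were compared with limma 3.58.1 in R 4.3.3 (eBayes with a variance trend, two-sided, Benjamini-Hochberg over all probe sets tested), and the script was tested on simulated data. The pseudocount of 16 understates differences of dim probe sets. A gene was represented by its brightest tested probe set. Exact permutation tests, two-sided and not adjusted, used all 252 assignments (smallest p 0.00794); correlations used 100000 permutations; 4 pairs that need Tf, Fth1 or Ftl1 were left out. Names came from the platform annotation, and all 12 probe sets matched RefSeq by Entrez identifier. Tables and plots used Python 3.11.15 (scipy 1.17.1, numpy 2.4.6, pandas 2.3.3, matplotlib 3.10.9). Intensities of different probe sets are not relative RNA amounts. The number of arrays limits the precision.

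The members, gene lists, pairs and naming rule (all members, 3 genes per list by unadjusted p, the iron regulatory proteins, pair partners and the 5 genes most like Hamp and Tfrc) were chosen with earlier results of these data known. The comparison of variation at like brightness, the correlations between probe sets of a gene and the remarks on Smad4 and Nfs1 overlap were added after the values were seen. Same-numbered rats of the groups deviated together in 0 of 5 pairs (r from -0.33 to 0.10), so the numbers were not taken as pairs. Alternatives were pseudocounts of 1 and 64, other filters, a median shift, quantile normalization, a fit without variance trend, the replicate number as a block, other probe set rules and leaving out each rat.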

Additional observations from a re-analysis of the deposited data

Results flagged for a closer look

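In 50 groups of 5 rats, 4 values stood apart from the others by Dixon's ratio, the gap to the nearest rat over the group's range on the log2(intensity + 16) scale, with a limit of 0.71; chance gives about 1 in 20 groups. Intensities are given here on the linear scale, on which 5 values pass, the same 4 and Tfrc (1388750_at) in mulberry 4 (0.78, or 0.68 on the log2 scale). Tfr2 in mulberry 5 was 7141, below the 7891 to 7986 of the other mulberry rats (ratio 0.89). Among mulberry rats the same rat was lowest for Cp, at 22477 against 25099 to 25958 (0.77). Among control rats control 3 was highest for Hp, at 41740 against 32545 to 34139 (0.81). Control 5, one of the 2 rats with high Tfrc, was highest for Isca1, at 1866 against 864 to 980 (0.84).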

How the results depend on the processing

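The count of probe sets past an adjusted p of 0.05 was 0 under every alternative run, the 1 probe set per gene and adjusted p under 0.1 settings included. With the replicate number as a block (replicate block) it was also 0, and the Hamp difference was 0.00070; the rats share only a number. Tfrc, Tfr2, Slc40a1 and Hfe kept the sign of their difference under every alternative, from -0.42 to -0.016, 0.016 to 0.060, 0.14 to 0.29 and 0.019 to 0.20 with 1 rat left out. Hamp turned to -0.012 with quantile normalization and -0.027 with a median shift, and ranged from -0.10 to 0.073 with 1 rat left out. Bmp6 turned to -0.0061 with a pseudocount of 64, -0.029 with quantile normalization and -0.024 with a median shift, and ranged from -0.20 (without control 2) to 0.12 with 1 rat left out; at the 60th percentile filter it was not tested. The median of the uptake, storage and export list ranged from -0.041 to 0.031 with 1 rat left out. Correlations turned sign for Hamp and Id1 (-0.08), Hamp and Tfr2 (0.10) and Tfrc and Hamp (0.10) without the 2 farthest rats, for Hamp and Tfr2 (0.12) and Hamp and Slc40a1 (0.19) with a median shift, for Hamp and Hfe (-0.16) and Tfrc and Slc40a1 (0.01) with quantile normalization, and for Tfrc and Slc40a1 (0.11) after subtracting group means. With 1 rat left out, a setting chosen after seeing the data for correlations, as were their median shift and pseudocount of 64, r ranged from -0.12 to 0.35 for Hamp and Hfe, -0.45 to 0.13 for Hamp and Slc40a1 and -0.25 to 0.21 for Tfrc and Slc40a1. For the pairs that kept their sign it ranged from -0.74 to -0.18 for Hamp and Tfr2, 0.19 to 0.60 for Hamp and Id1, 0.17 to 0.57 for Hamp and Smad7, 0.19 to 0.42 for Hamp and Bmp6 and -0.60 to -0.30 for Tfrc and Hamp. The cause of these turns was not tested. The dim Bmp6 signal, near the filter level, limits what its values can show.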
